A study of Mus musculus with 11 samples.

Results

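The genes described here are 10 genes of the endoplasmic reticulum (ER) stress response, Manf, Hspa5, Hsp90b1, Xbp1, Atf4, Ddit3, Creld2, Dnajb9, Sdf2l1 and Pdia4. They were chosen by name, and all 10 had a row among the 14272 genes of the expression tables. Manf is a module hub that the study picked from these same libraries, so its values are not independent evidence of its direction. RNA was sequenced in 4 mouse cell lines of a melanoma progression model. Melan-a is a spontaneously immortalized line of nonmalignant melanocytes, syngeneic to C57Bl/6 and grown with 200 nM PMA (2 libraries, replicates 2 and 3). The other lines were derived from melan-a by cycles in which anchorage to the dish was prevented, and were grown without PMA: 4C is pre-malignant and mesenchymal-like, 4C11- is a non-metastatic melanoma line with mesenchymal-like cells, and 4C11+ is a metastatic, epithelial melanoma line (3 libraries each). Each stage is represented by 1 line, so p-values measure the spread between libraries of a line, and PMA and the melan-a line cannot be told apart. The labels do not say whether the replicates are separate cultures.

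Secreted and membrane proteins fold in the ER with the help of chaperones and of enzymes that form disulfide bonds. When unfolded proteins accumulate, the sensors IRE1 (gene Ern1), PERK (Eif2ak3) and ATF6 start the unfolded protein response (UPR). IRE1 splices the mRNA of the transcription factor XBP1, ATF6 is cut by the site proteases and enters the nucleus, and PERK phosphorylates eIF2alpha, which lowers translation in general while favouring that of ATF4. ATF4 is also reached by other eIF2alpha kinases, for example when amino acids are short, so genes downstream of it are shared with the wider integrated stress response. In pigment cells the ER also makes the membrane enzymes of the melanosome, and mesenchymal cells send large amounts of collagen through it.

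The promoters of 3 of the 10 genes are shown because they hold letters of the ER stress response element (ERSE), the motif through which ATF6 is known to act. The motif was searched on both strands as CCAAT, 9 bases of any kind and CCACG, in the 250 bases before the RefSeq start (build GRCm38.p6). RefSeq gave a promoter for 9 of the 10 genes, and Manf had no entry. ERSE was found in 3 of these 9 and in 37 of all 32851 promoters of the table (0.113%). Genes and motif were both chosen for their known part in ER stress, so these shares are not a test. The lines below run 5′ to 3′ on the strand of the gene, with ERSE in capitals, and with the UPRE core TGACGTG in capitals too in the first. Each ERSE reads as CCAAT to CCACG or as its reverse complement.
Hspa5, chr2:34771840-34772089, plus strand: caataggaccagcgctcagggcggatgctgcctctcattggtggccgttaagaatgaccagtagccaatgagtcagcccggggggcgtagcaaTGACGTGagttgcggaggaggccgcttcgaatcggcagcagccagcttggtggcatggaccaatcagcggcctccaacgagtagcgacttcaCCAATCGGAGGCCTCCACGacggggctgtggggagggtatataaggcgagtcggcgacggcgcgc
Hsp90b1, chr10:86705445-86705694, minus strand: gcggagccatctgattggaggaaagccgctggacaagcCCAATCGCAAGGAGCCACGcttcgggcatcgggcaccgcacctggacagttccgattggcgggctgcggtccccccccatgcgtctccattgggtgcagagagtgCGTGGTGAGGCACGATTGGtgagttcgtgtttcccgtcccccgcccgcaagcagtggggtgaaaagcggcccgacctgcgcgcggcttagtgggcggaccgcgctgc
Creld2, chr15:88819396-88819645, plus strand: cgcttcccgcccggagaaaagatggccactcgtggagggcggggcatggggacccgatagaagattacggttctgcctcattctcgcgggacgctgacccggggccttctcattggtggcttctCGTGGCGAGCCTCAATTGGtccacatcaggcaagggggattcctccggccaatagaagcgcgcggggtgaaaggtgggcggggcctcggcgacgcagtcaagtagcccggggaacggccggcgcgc

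In Hspa5 the ERSE spanned positions -65 to -47 from the start, with the UPRE core at -157 to -151. Hsp90b1 held an ERSE at -212 to -194 and another, on the opposite strand, at -107 to -89. In Creld2 it lay at -126 to -108 on the opposite strand. The UPRE core was present in 542 of all promoters (1.65%) and in 1 of the 9. The related ERSE-II (ATTGG, 1 base of any kind, CCACG; 0.0304% of all promoters) and the CARE motif bound by ATF4 and its partners (TGATG, 1 base of any kind, AA; 3.45%) were in 0 of the 9. These are matches of letters in a short window, and they say nothing about whether a factor is bound. The genes with an ERSE differed in their values below: Creld2 rose in 4C11+, whereas Hspa5 and Hsp90b1 did not pass the test in any comparison.

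Values were deposited as log2 CPM, the reads of a gene scaled to the size of its library. All libraries share 1 highest value, as a quantile step leaves it, so levels may not be plain CPM. Rough depths were estimated from the steps between low values. They were about 3.5 and 5.82 M reads for the melan-a libraries and 5.67 to 7.08 M for 4C. For 4C11- they were 4.58 to 7.42 M and for 4C11+ 4.07 to 5.47 M. The estimate assumes scaling by library size alone, so these need not be the sequencing depths. Libraries of a line were not equally alike. The replicates 1 and 2 of 4C11+ were the closest pair. Over genes at about 200 to 1000 reads by these estimates, the SD of their log2 differences was 0.193. It was 0.373 to 1.097 in the other 9 pairs within a line. Squared differences in the pair averaged 3.44 times a counting error taken from the rough depths, against 14.2 to 70.01 in the other pairs. This ratio cannot show whether the pair came from separate cultures. They were kept as separate libraries, as labelled. Replicate 1 of 4C11- stood apart from the 2 others of its line, with correlations across genes of 0.888 and 0.924 against 0.971 between those. The 2 melan-a libraries correlated at 0.907, and with 2 libraries neither can be singled out. Replicate 2 had the lowest depth estimate of all. Long genes deviated from short genes by -0.35 in 4C11- replicate 1, -0.3 in 4C replicate 1, 0.29 in 4C11- replicate 3 and 0.3 in 4C11+ replicate 3, and by -0.2 to 0.19 in the other 7 libraries (difference of median log2 deviations between the longest and the shortest 25% of genes). The summed level of 8 melanocyte markers was 10.85 to 13.15 in melan-a and 13.46 to 13.73 in 4C11+, but 1.94 to 2.93 in 4C and 2.06 to 3.66 in 4C11-, with Tyr at 3 reads or fewer in every library of both. In melan-a itself, Tyr was -0.25 and 1.29 and Pmel 2.41 to 2.95, while Dct was 9.04 to 10.81. The summed level of the fibroblast markers, 3 of 6 with a row, was 10.7 to 11.11 in 4C and 4C11-, 4.17 and 6.42 in melan-a and 3.05 to 3.25 in 4C11+. Col1a1 carried most of it in 4C and 4C11-, and Pdgfra was the highest of the 3 in melan-a and 4C11+. The leukocyte marker Cd68 was 6.35 in 1 melan-a library and 2.67 in the other (2 of 4 leukocyte markers had a row). The part of these marker differences in the results below was not tested.

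**Figure D1:**
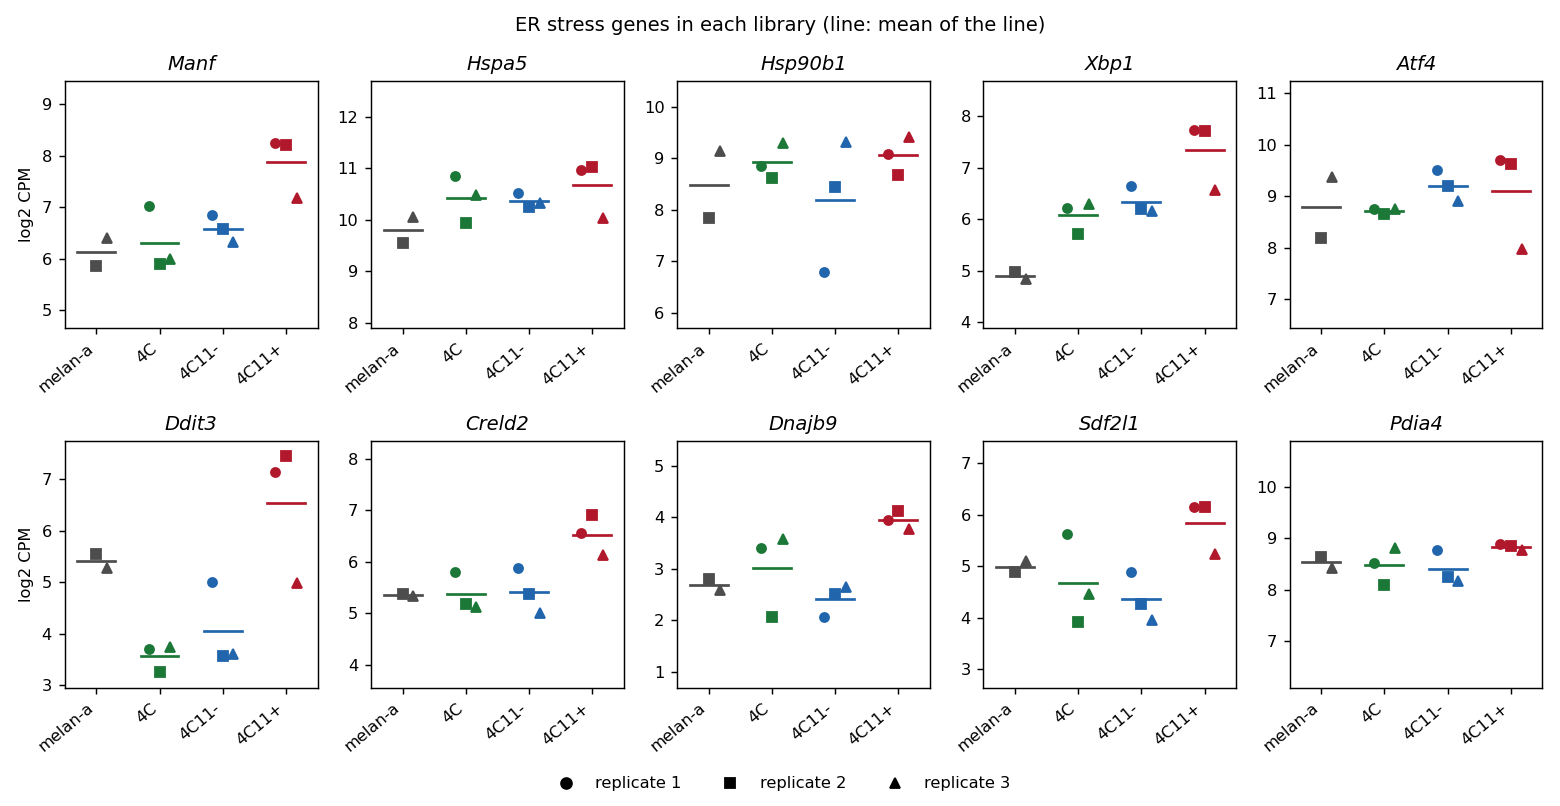
Level of each of the 10 genes (log2 CPM, y axis, the same span in each panel) in the 11 libraries by line; points are libraries, their shape is the replicate number and the horizontal line is the mean of the line. Manf, Creld2 and Dnajb9 were above every other library in all 3 libraries of 4C11+. The share of all genes placed in this way is not given here, so the figure does not show whether that is unusual. Replicate 3 of 4C11+ lay below the 2 others for 9 of the 10 genes. It was below the mean of the 2 others in 7738 of all 14272 genes.

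In 4C11+, 6 of the 10 genes rose against the mean of the other lines and 0 fell. They were Ddit3, Xbp1, Manf, Dnajb9, Sdf2l1 and Creld2, by 2.22-fold to 4.54-fold (limma, adjusted p under 0.05 over all genes). Of all genes, 18.3% were called higher and 15.8% lower in this comparison. In bulk RNA, more cells that express a gene and more RNA of it per cell cannot be told apart. The median log2 difference was 1.16 over the 10 genes and 0.08 over all genes. The large chaperones Hspa5 and Hsp90b1, the disulfide isomerase Pdia4 and the transcription factor Atf4 did not pass the test. Without replicate 1 or replicate 2 of 4C11+, or with both averaged as 1 library, 4 of the 10 remained called, Dnajb9 and Sdf2l1 being lost. The calls over all genes, higher or lower, also fell in these fits, from 4856 to 3001, 3038 and 3041.

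Manf encodes a secreted, ER-resident neurotrophic factor that binds the chaperone BiP and protects cells from ER stress. The gene lies on chromosome 9 from 106838312 to 106891979 on the minus strand (GENCODE M21, GRCm38). It overlaps Dcaf1 on the opposite strand by 42681 bases and Rbm15b on its own by 6511 bases. The library kit keeps the strand, and the strand setting of the counting is not given in the sources used here. Manf was at 5.85 and 6.41 in melan-a, at 7.02, 5.89 and 5.99 in 4C, at 6.85, 6.57 and 6.32 in 4C11- and at 8.25, 8.21 and 7.17 in 4C11+ (log2 CPM). The lowest 4C11+ library was above the highest of the other lines, 4C replicate 1, by a small margin. Against the average of the other lines, Manf was higher in 4C11+ by 1.54 ± 0.3 on the log2 scale (SE, limma adjusted p = 0.00247). With any 1 library left out the difference was 1.35 to 1.89, and Manf was called in each of the 19 alternatives tried. Taken line by line, the difference from 4C11+ was 1.3 ± 0.36 for 4C11- (adjusted p = 0.0187), 1.58 ± 0.36 for 4C (adjusted p = 0.00648) and 1.74 ± 0.41 for melan-a (adjusted p = 0.0149). These differences share the 3 libraries of 4C11+. The call against 4C11- was lost without 4C11+ replicate 1 or 2 or without 4C11- replicate 2 or 3 (adjusted p = 0.0533 to 0.0851 in limma), and that against melan-a without melan-a replicate 2 or without 4C11+ replicate 1 or 2 (0.0622 to 0.116). The order of the means was 4C11+, 4C11-, 4C and melan-a, of which the last 3 did not differ beyond their spread.

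Creld2 and Sdf2l1 encode smaller ER proteins that are known to be induced with Manf by ER stress. Creld2, an ER protein with EGF-like domains (chromosome 15, 88819646 to 88826683, plus strand), was at 5.37 and 5.33 in melan-a, at 5.79, 5.18 and 5.12 in 4C, at 5.88, 5.37 and 5 in 4C11- and at 6.56, 6.9 and 6.12 in 4C11+. All 3 libraries of 4C11+ were above the other 8. The difference from the mean of the other lines was 1.15 ± 0.25 (limma adjusted p = 0.00435), or 2.22-fold, and it passed in each of the 19 alternatives. Line by line, Creld2 was higher in 4C11+ than in 4C11- by 1.11 ± 0.3 (adjusted p = 0.0153). It was higher than in 4C by 1.16 ± 0.3 (adjusted p = 0.0116) and than in melan-a by 1.18 ± 0.33 (adjusted p = 0.0346). These calls held in 15, 16 and 10 of 20 alternatives, and each was lost without 4C11+ replicate 2. Sdf2l1, a partner of BiP and of ER DNAJ proteins (chromosome 16, 17130138 to 17132383, minus strand), was at 4.88 and 5.1 in melan-a, at 5.63, 3.92 and 4.47 in 4C, at 4.88, 4.27 and 3.95 in 4C11- and at 6.15, 6.16 and 5.23 in 4C11+. Here replicate 3 of 4C11+ lay below 4C replicate 1, so the groups overlapped. Sdf2l1 rose by 1.17 ± 0.36 (adjusted p = 0.0267), and without 4C11+ replicate 1 or 2 the estimate of 1.01 to 1.02 did not pass (limma adjusted p = 0.13).

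Of the transcription factors, Xbp1 and Ddit3 passed and Atf4 did not. Xbp1, which drives chaperone and degradation genes once spliced (chromosome 11, 5520659 to 5525893, plus strand), was at 4.97 and 4.84 in melan-a, at 6.21, 5.72 and 6.3 in 4C, at 6.65, 6.2 and 6.16 in 4C11- and at 7.73, 7.72 and 6.57 in 4C11+. Both melan-a libraries were the lowest of all, and 4C11+ replicate 3 lay just under 4C11- replicate 1. Gene-level counts do not separate the spliced from the unspliced mRNA. Xbp1 was the 1 member called in 4C against melan-a, at 1.18 ± 0.36 (limma adjusted p = 0.0463), and the 1 member called in 4C11- against melan-a, at 1.43 ± 0.36 (adjusted p = 0.0196). It was higher again in 4C11+ than in 4C11- by 1 ± 0.32 (limma adjusted p = 0.0333), and 5.41-fold higher in 4C11+ than in melan-a (adjusted p = 0.00103), which passed in each of 20 alternatives. The call in 4C11- was lost without either melan-a library, and that between the melanoma lines in 7 of 20 alternatives, among them those without 4C11+ replicate 1 or 2 or 4C11- replicate 2 or 3. The difference of 4C from melan-a was the least stable of these, and it was lost in 14 of 20 alternatives.

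Ddit3 encodes CHOP, a transcription factor induced in unresolved stress and linked to cell death (chromosome 10, 127290774 to 127296288, plus strand; its end overlaps Mars on the opposite strand by 68 bases). It was at 5.55 and 5.27 in melan-a, at 3.7, 3.25 and 3.75 in 4C, at 5, 3.57 and 3.6 in 4C11- and at 7.15, 7.45 and 4.99 in 4C11+. Replicates 1 and 2 of 4C11+ were far above all other libraries, while replicate 3 was at the level of 4C11- replicate 1 and below melan-a. Ddit3 nevertheless had the largest difference of the 10 genes between 4C11+ and the average of the others, 2.18 ± 0.48 (limma adjusted p = 0.00493), with 2.95 without replicate 3, 1.72 without replicate 2 and 1.87 without replicate 1. It was higher in 4C11+ than in 4C by 2.96 ± 0.58 (adjusted p = 0.00239) and than in 4C11- by 2.47 ± 0.58 (adjusted p = 0.00739). Against melan-a the difference of 1.12 ± 0.65 did not pass (adjusted p = 0.274). Without 4C11+ replicate 3 it was 1.89 and passed (limma adjusted p = 0.0224). Ddit3 was also lower in the mesenchymal-like than in the epithelial lines, by -2.16 ± 0.44 (adjusted p = 0.00286), with 4C11- replicate 1 just above 4C11+ replicate 3. Of the 10 genes it was the 1 called lower in that comparison and 0 were called higher, where 15.3% of all genes were called lower and 14.3% higher.

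Atf4, whose protein is controlled mainly by translation (chromosome 15, 80255184 to 80257541, plus strand), was at 8.19 and 9.38 in melan-a, at 8.76, 8.66 and 8.75 in 4C, at 9.51, 9.21 and 8.91 in 4C11- and at 9.71, 9.63 and 7.97 in 4C11+. The highest and the lowest library of all 11 both belonged to 4C11+. The difference between 4C11+ and the average of the others was 0.19 ± 0.36 (limma adjusted p = 0.706), and the mean of 4C11- was the highest by 0.11. Without 4C11+ replicate 3 the estimate was 0.76 (limma adjusted p = 0.0586), and without replicate 1 or replicate 2 it was -0.11 or -0.07.

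Among the chaperones, the small co-chaperone was called and the large chaperones were not. Dnajb9 (ERdj4), a DNAJ protein that works with BiP and holds IRE1 in check (chromosome 12, 44205559 to 44210326, minus strand), was the gene of lowest level, at 2.8 and 2.59 in melan-a, at 3.4, 2.07 and 3.57 in 4C, at 2.06, 2.52 and 2.64 in 4C11- and at 3.94, 4.12 and 3.77 in 4C11+. All 3 libraries of 4C11+ were above the other 8. Dnajb9 rose by 1.23 ± 0.34 against the mean of the other lines (limma adjusted p = 0.015) and by 1.54 ± 0.41 against 4C11- (adjusted p = 0.0136). The former was lost without 4C11+ replicate 1 or 2 and the latter without replicate 2. Hspa5, the BiP chaperone that also keeps the UPR sensors inactive (chromosome 2, 34771970 to 34777547, plus strand), was at 9.55 and 10.05 in melan-a, at 10.85, 9.93 and 10.47 in 4C, at 10.52, 10.25 and 10.33 in 4C11- and at 10.97, 11.03 and 10.03 in 4C11+. Replicates 1 and 2 of 4C11+ were above every other library, and replicate 3 was within the range of the other lines. The difference of 0.48 ± 0.25 did not pass (limma adjusted p = 0.161), though it did without 4C11+ replicate 3 (0.8, adjusted p = 0.0287).

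Hsp90b1 is the ER member of the HSP90 family (chromosome 10, 86690209 to 86705509, minus strand). It overlaps 1810014B01Rik on the opposite strand and Gm15344 on its own strand, the latter by 977 bases. Hsp90b1 was at 7.83 and 9.14 in melan-a, at 8.85, 8.62 and 9.29 in 4C, at 6.78, 8.43 and 9.32 in 4C11- and at 9.08, 8.68 and 9.41 in 4C11+. The spread lay within lines, above all in 4C11-, whose replicate 1 was the lowest library. The difference between 4C11+ and the other lines was 0.53 ± 0.45 (limma adjusted p = 0.393). Pdia4, a protein disulfide isomerase (chromosome 6, 47796141 to 47813430, minus strand), was at 8.63 and 8.43 in melan-a, at 8.51, 8.1 and 8.81 in 4C, at 8.78, 8.25 and 8.17 in 4C11- and at 8.89, 8.84 and 8.78 in 4C11+. It varied least of the 10 genes, with a pooled SD within lines of 0.27, and its difference was 0.37 ± 0.19 (limma adjusted p = 0.155). Per kilobase of exon, the mean level over the 4 lines (log2 CPM per kb) was highest in Hspa5 at 8.23, followed by Atf4 at 7.72, Pdia4 at 7.3, Hsp90b1 at 6.65, Creld2 at 5.22, Manf at 4.9, Sdf2l1 at 4.82, Xbp1 at 4.46, Ddit3 at 4.12 and Dnajb9 at 1.66. The 4 genes that did not pass against the mean of the other lines were thus the 4 of highest level per length, and each of the 6 genes called was lower. Length here joins all annotated exons of a gene, 3524 bases for Manf, so the order depends on the annotation.

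Step by step along the model, most calls among these genes were in the comparisons with 4C11+. In 4C against melan-a, 1 of the 10 was called higher and 0 lower (7.64% and 7.55% of all genes). In 4C11- against 4C it was 0 of 10 in limma, with 1.26% of all genes higher and 0.406% lower. At an unadjusted limma p under 0.05 it was also 0 of 10, against 1926 of all 14272 genes, and the smallest p of a member was 0.16. With only 10 genes, a count of 0 cannot show that they changed less than genes in general. In 4C11+ against 4C11-, 6 were called higher and 0 lower (15.6% and 15.4% of all genes), the same 6 as against the mean of the other lines. This count fell to 1 or 2 without 4C11+ replicate 1 or 2 or without 4C11- replicate 2 or 3, and with 4C11+ replicates 1 and 2 averaged it was 2. Calls over all genes fell from 4433 to between 2986 and 3813 in these fits. In 4C11- against melan-a, 1 was called higher and 0 lower (7.55% and 6.05%). In 4C11+ against 4C, Manf, Xbp1, Ddit3 and Creld2 were called higher and 0 lower (17.1% and 14.6%), with 2 called without 4C replicate 2 or without 4C11+ replicate 2. Calls over all genes were 4528, and 3129 and 3120 in these fits. In 4C11+ against melan-a, Manf, Xbp1 and Creld2 were called higher and 0 lower (8.39% and 7.52%), with 1 called without melan-a replicate 2 or without 4C11+ replicate 1 or 2 and 5 called without 4C11+ replicate 3. Calls over all genes in 4C11+ against melan-a were 2270. They were 1089 and 1145 without 4C11+ replicate 1 or 2, and 2327 without replicate 3. The comparisons of this paragraph share libraries and are not independent of each other.

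**Figure D2:**
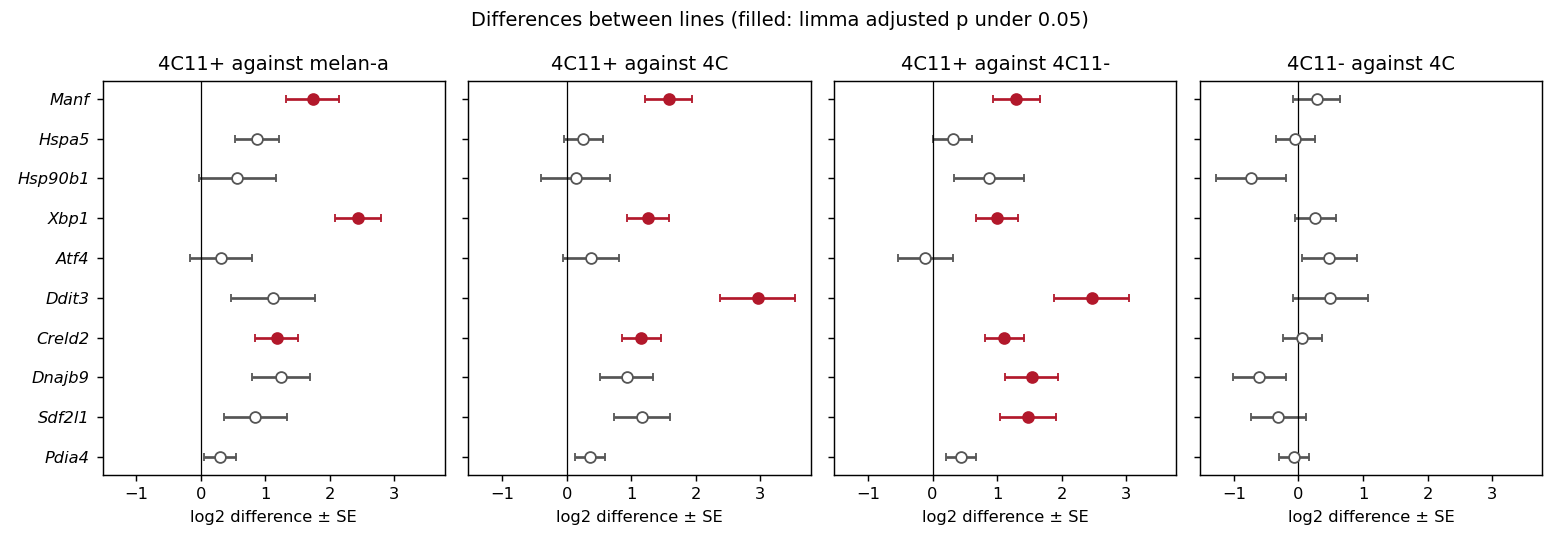
Log2 difference of each gene (x axis, point, with the SE of limma as bar) in 4 comparisons; filled red points passed an adjusted p of 0.05 and open points did not. In the fit as reported, Manf, Xbp1 and Creld2 passed in each of the 3 comparisons with 4C11+, and 0 of 10 genes passed between 4C11- and 4C.

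The other genes of the pathway were taken from 6 lists with 78 genes in all, each with a row. ER-associated degradation returns misfolded proteins to the cytosol for the proteasome. In 4C11+ against the mean of the other lines, 10 of its 18 genes were called higher and 0 lower (18.3% and 15.8% of all genes). The median log2 difference of the list was 0.77 against 0.08 over all genes. Among the genes called, Selenos, a partner of the derlin channel, rose by 1.73 ± 0.31 (limma adjusted p = 0.00147). Edem1, a lectin that selects misfolded glycoproteins, rose by 1.23 ± 0.15 (adjusted p = 8.51e-05). It is also a module hub of the study and thus no independent evidence. The count was 4 or 5 without 4C11+ replicate 1 or 2, and 11 without replicate 3. Calls over all genes went from 4856 to 3001, 3038 and 4571 in these fits, which also serve the lists below.

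Oxidative folding, the enzymes that form and rearrange disulfide bonds, had 6 of 13 called higher and 1 lower (18.3% and 15.8% of all genes). The median was 0.26, against 0.08 over all genes. Tmx1, a membrane-bound thioredoxin protein, was 3.02-fold higher in 4C11+ (limma adjusted p = 0.00294), and the oxidase gene Ero1lb was 1.92-fold higher (adjusted p = 0.0333). The other oxidase gene, Ero1l, was high in both epithelial lines. It was at 7.92 and 7.64 in melan-a, at 5.39, 5.33 and 5.43 in 4C, at 4.57, 5.14 and 5.45 in 4C11- and at 7.55, 7.59 and 7.97 in 4C11+, and was lower in the mesenchymal-like lines by -2.52 ± 0.19 (adjusted p = 1.03e-06). The list of oxidative folding genes counted 3 or 4 called higher without 4C11+ replicate 1 or 2.

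Translocation into the ER and KDEL retrieval had 5 of 14 called higher and 1 lower, where 18.3% and 15.8% of all genes were. The median was 0.45, and Sec61a1, the channel subunit, was higher by 0.78 ± 0.17 (limma adjusted p = 0.00493). The count was 1 or 2 without 4C11+ replicate 1 or 2. ER chaperones other than the 10 genes had 2 of 13 higher and 1 lower (median 0.25), close to the background. Creld1, a relative of Creld2, was 4.62-fold higher (limma adjusted p = 0.00662). It was at 3.45 and 0.4 in melan-a, from 3.11 to 4.27 in 4C and 4C11- and from 5.01 to 5.42 in 4C11+. The count of chaperones called higher was 1 without 4C11+ replicate 1 or 2. Hyou1, a large chaperone and exchange factor for BiP, was the gene called lower, by -1.01 ± 0.15 (adjusted p = 0.000417). It was at 8.81 and 8.94 in melan-a, from 9.43 to 9.87 in 4C and 4C11- and from 8.24 to 8.41 in 4C11+. Hyou1 thus went in the opposite direction to Creld2 and Dnajb9 in the same libraries.

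Of the 6 sensors and proteases, Eif2ak3 (PERK) rose by 0.91 ± 0.19 (limma adjusted p = 0.00323) and Ern1 (IRE1) by 0.84 ± 0.23 (adjusted p = 0.0167), the latter lost without 4C11+ replicate 1 or 2 (limma adjusted p = 0.0634 and 0.0657). Mbtps1, the site-1 protease that cuts ATF6 and another hub of the study, fell by 1.49 ± 0.23 (adjusted p = 0.000427). The median of this list, 0.09, was that of all genes to within 0.01. The PERK branch and integrated stress response had 3 of 14 called higher and 2 lower (median 0.36), near the 18.3% and 15.8% of all genes. Of these, Eif2s1, which encodes eIF2alpha itself, rose by 1.16 ± 0.31 (limma adjusted p = 0.0124), while the transcription regulators Nupr1 and Cebpb fell by 2.33 ± 0.62 (adjusted p = 0.0132) and by 2.21 ± 0.47 (adjusted p = 0.00393). The number called higher in this list was 1 without 4C11+ replicate 1 or 2 and 6 without replicate 3.

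**Figure D3:**
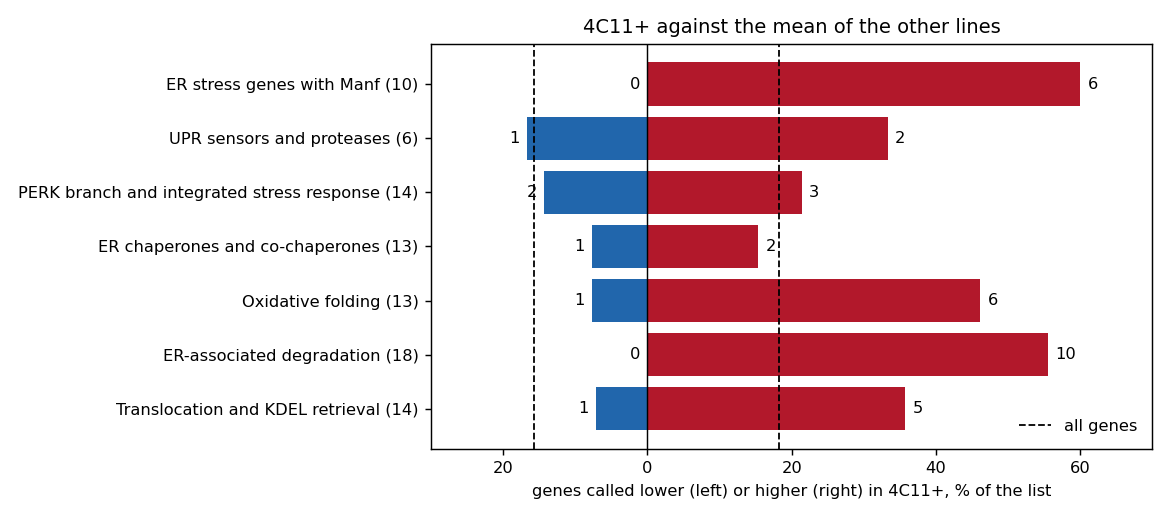
Share of each list called higher (right, red) or lower (left, blue) in 4C11+ against the mean of the other lines, in % of the genes of the list; the number in brackets is the size of the list, the numbers at the bars count genes and the dashed lines give the share of all genes. ER-associated degradation (10 of 18) and the 10 ER stress genes (6 of 10) reached furthest to the right.

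In 4C11+ against 4C, 22 of the 78 were called higher and 10 lower (17.1% and 14.6% of all genes), and in 4C against melan-a 4 higher and 2 lower (7.64% and 7.55%). Kdelr3, a receptor that returns proteins with a KDEL tail to the ER, was 3.98-fold higher in 4C (limma adjusted p = 0.0138) and Ero1l 5.26-fold lower (adjusted p = 9.51e-05). In 4C11- against melan-a, 5 were called higher and 2 lower (7.55% and 6.05% of all genes), again with Kdelr3 (7.81-fold higher, adjusted p = 0.00118) and Ero1l (6.63-fold lower, adjusted p = 3.66e-05); both comparisons share the melan-a libraries. In 4C11- against 4C, 0 of 78 were called, although all 14 genes of the PERK list had an estimate above 0, with a median of 0.59 against 0.01 over all genes. Without 4C11- replicate 1 the median was 0.31, with 13 of 14 above 0. In mesenchymal-like against epithelial lines, 9 were called higher and 14 lower, near the 14.3% and 15.3% of all genes, and 7 of the latter were in ER-associated degradation.

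Replicate 3 of 4C11+ stood below the 2 other libraries of its line in these genes. By over 1 log2 unit it was below both others in 4 of the 10 genes (Manf, Xbp1, Atf4 and Ddit3) and in 8 of the 14 genes of the PERK list, where 4.62% of all genes were. The median difference from the mean of the 2 others was -0.95 over the 10 genes, -1.51 over the PERK list and -0.07 over all genes. Trib3, a pseudokinase that restrains ATF4, was at 7.68 and 7.52 in replicates 1 and 2 and at 3.66 in replicate 3. Chac1, an enzyme that breaks down glutathione, was at 5.71, 5.76 and 2.81, and Herpud1, a scaffold of ER-associated degradation, at 8.07, 8.52 and 5.76. Replicate 3 of these genes lay within or below the range of the other lines. The list of ER-associated degradation had 4 of 18 genes below both by over 1 log2 unit, with a median difference of -0.6. Some genes did not follow: Dnajb9, Pdia4, Hsp90b1 and, from that list, Edem1 differed by less than 0.6 log2 units. The chaperone list differed by a median of -0.16.

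In 4C11-, replicate 1 was above both other libraries by over 1 log2 unit in 6 of the 14 genes of the PERK list and below both in 0. Of all 14272 genes, 8.15% were above and 2129 genes were below. Of the 10 genes, 1 was above (Ddit3) and 1 below (Hsp90b1), a share near that of all genes. The median difference was 0.46 over the 10 genes, 0.96 over the PERK list and 0.24 over all genes. Trib3 was at 7.04, 5.03 and 5.21 and Chac1 at 5.2, 2.91 and 3.03 in replicates 1, 2 and 3. The pooled SD within lines had a median of 0.67 over the PERK list, 0.5 over the 10 genes and 0.48 over all genes, and among the 10 it was largest in Ddit3 (0.86) and Hsp90b1 (0.82). Long genes deviated from short genes in both of these libraries, and about as much in 4C11- replicate 3 and 4C replicate 1; the part of that in the differences was not tested.

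**Figure D4:**
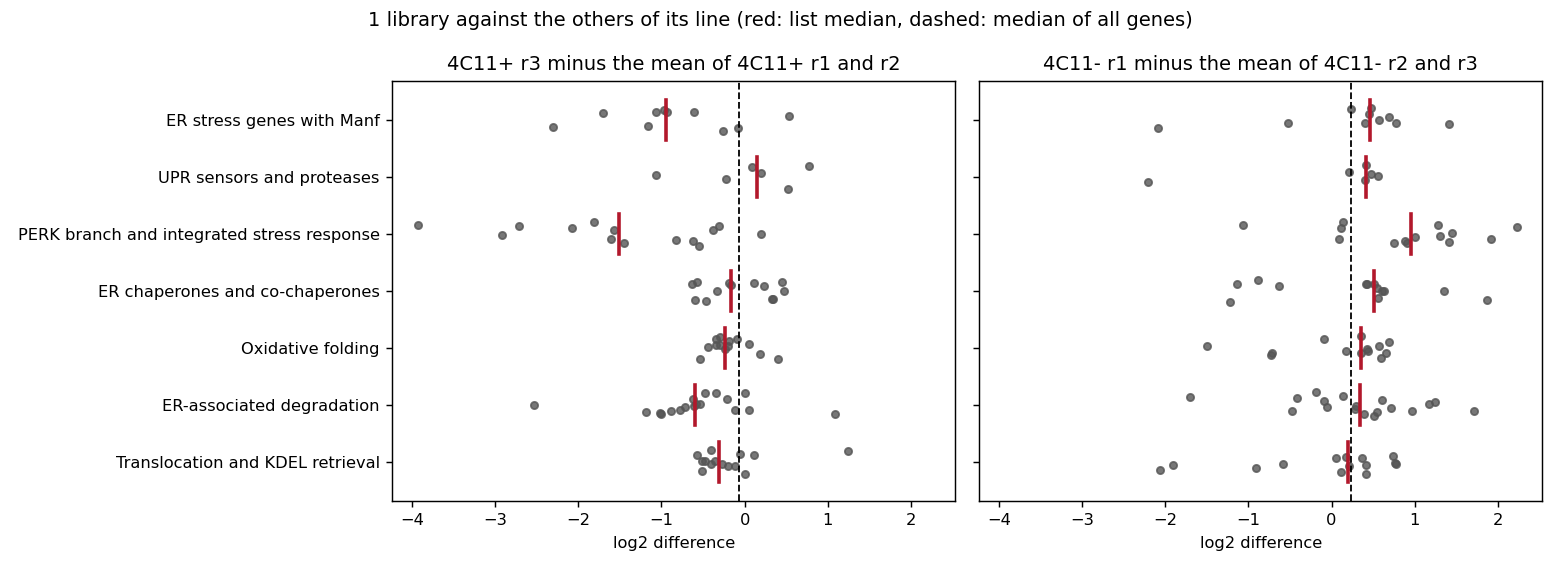
Log2 difference (x axis) of 4C11+ replicate 3 (left) and 4C11- replicate 1 (right) from the mean of the 2 other libraries of the line; points are genes, red bars are list medians and the dashed line is the median of all genes. The PERK list lay lowest on the left, with a median of -1.51, and highest on the right, with a median of 0.96.

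Over the 11 libraries the genes most like Manf in pattern were Golt1b (Pearson r = 0.989), Uqcrc2 (0.985), Ccdc115 (0.983), Cox10 (0.979) and Nudt19 (0.979). Golt1b and Cox10 are hubs of the same module as Manf, which the study built from co-expression in these libraries, so their likeness is not independent evidence. Among the other 9 ER stress genes, Creld2 (0.945), Sdf2l1 (0.853) and Xbp1 (0.851) had an r over 0.8, as did 7.78% of all genes. Hspa5 followed at 0.78, Ddit3 at 0.755, Dnajb9 at 0.686, Pdia4 at 0.579, Atf4 at 0.543 and Hsp90b1 at 0.11. These values describe the libraries at hand, which share their lines, and 2 of the 11 points are the close pair of 4C11+. Once the mean of each line was taken off, the correlation with Manf was 0.934 for Sdf2l1, 0.917 for Hspa5, 0.831 for Creld2, 0.767 for Atf4, 0.721 for Xbp1 and 0.687 for Ddit3, but 0.264 for Dnajb9, 0.249 for Pdia4 and -0.249 for Hsp90b1. The value of Hspa5 was thus higher within lines than over all libraries, and that of Hsp90b1 was low over all libraries and negative within lines. Manf departed most from its line in 4C11+ replicate 3 (7.17, against 8.25 and 8.21) and in 4C replicate 1 (7.02, against 5.89 and 5.99). The correlations within lines lean on these libraries, and the share of all genes with such values is not given here.

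**Figure D5:**
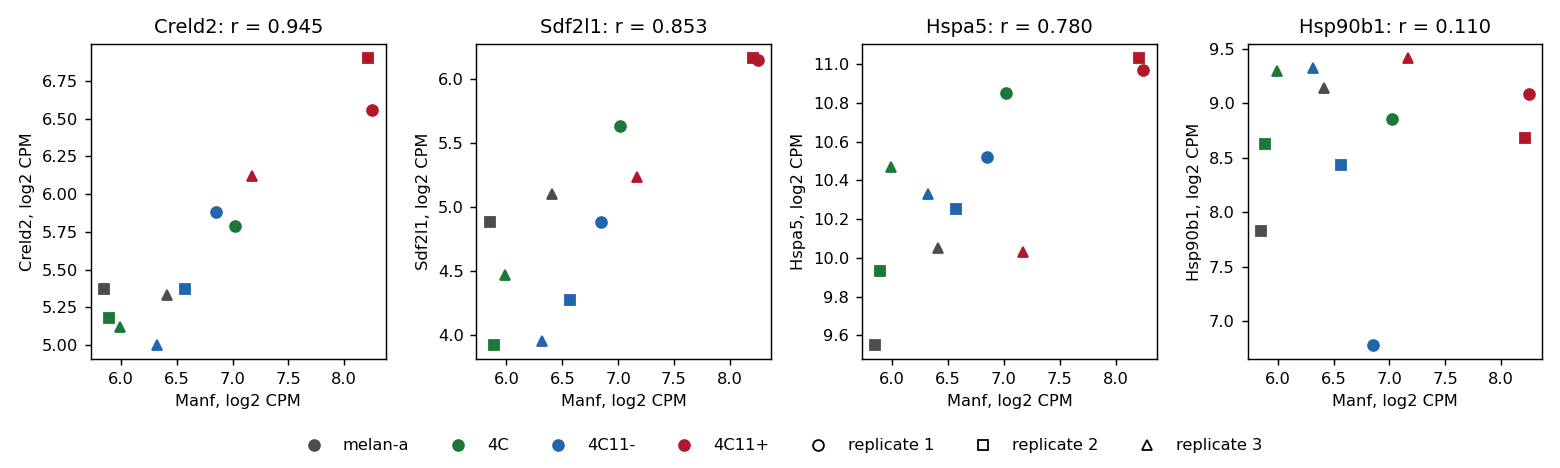
Level of Creld2, Sdf2l1, Hspa5 and Hsp90b1 (y axis, log2 CPM) against Manf (x axis, log2 CPM) in the 11 libraries, coloured by line, with the Pearson r of each panel. Creld2 was higher where Manf was higher (r = 0.945), and Hsp90b1 showed no such order (r = 0.110).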

How the data were processed

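Total RNA of 11 libraries was compared, 2 of melan-a and 3 of each other line; melan-a replicate 1 was not analysed here. The deposited values are log2 CPM. According to the methods and the submitters' processing notes, the authors trimmed the reads with Trimmomatic, aligned them with STAR to GRCm38 (Ensembl annotation), counted them with Rsubread, kept genes that reached 1 CPM in 4 or more libraries and ran voom from limma. All libraries share 1 highest value, as a quantile step leaves it. The values were used as deposited, with no pseudocount or further filter. Gene symbols and places came from GENCODE M21 (GRCm38), and 24 genes had no symbol.

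All 14272 genes were fitted by limma 3.58.1 (R 4.3.3); each line had its own mean, the variance prior followed a trend with level, and p-values were adjusted after Benjamini and Hochberg. The fit was tested on simulated data. The 10 genes, the lists and the comparisons were chosen with earlier results of these data known. Of the 6 lists and 8 comparisons, up to 3 genes per list and comparison were eligible for naming, those with the largest difference among genes past the threshold without overlap between libraries, as well as the 5 genes most like Manf; Trib3, Chac1 and Herpud1 were named after their values were seen. A gene eligible by this rule is not reported here. Melanocyte, fibroblast, keratinocyte and leukocyte markers were fixed for the check of the lines; the 1 keratinocyte marker with a row, Krt10, was at or under 1.48 in every library. Other normalizations, a low-value filter, other variance models, the replicate number as a block, the libraries of the compared lines alone and each library left out were tried as alternatives. After the data were seen, 2 were added: 4C11+ replicates 1 and 2 averaged, and melan-a replicate 2 and 4C11- replicate 1 left out.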

Additional observations from a re-analysis of the deposited data

How the results depend on the processing

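With any 1 library left out, 0 to 2 of the 10 genes were called in 4C against melan-a, 0 of them in 4C11- against 4C, 1 to 7 in 4C11+ against 4C11-, 0 to 1 in 4C11- against melan-a, 2 to 6 in 4C11+ against 4C, 1 to 5 in 4C11+ against melan-a, 4 to 7 in 4C11+ against the mean of the other lines and 1 to 3 in mesenchymal-like against epithelial lines. In 4C against melan-a the count of 1 became 0 without melan-a replicate 2 or 3, 4C replicate 1, 2 or 3, 4C11- replicate 2 or 3 or 4C11+ replicate 1 or 2, and 2 without 4C11- replicate 1 or 4C11+ replicate 3. In 4C11- against melan-a it became 0 without either melan-a library, and in the phenotype comparison 3 without 4C replicate 1, 4C11- replicate 1 or 4C11+ replicate 3. In the same way, the difference in Manf ranged from -0.19 to 0.45 in 4C against melan-a (negative without melan-a replicate 2, at -0.11, and without 4C replicate 1, at -0.19), from 1.11 to 1.65 in 4C11+ against 4C11-, from 1.47 to 2.1 in 4C11+ against melan-a and from -0.74 to -0.42 in the phenotype comparison, where it passed at -0.74 without 4C replicate 1 or 4C11+ replicate 3. Calls over all genes moved too with 1 library of 4C, 4C11- or 4C11+ left out. They ranged from 1453 to 2663 in 4C against melan-a, 93 to 221 in 4C11- against 4C and 2986 to 4673 in 4C11+ against 4C11-. Against melan-a they were 1366 to 2098 for 4C11- and 1089 to 2864 for 4C11+. They were 3117 to 5317 in 4C11+ against 4C and 3001 to 5718 against the mean of the other lines. In the phenotype comparison they were 3383 to 4854. The number of the 9 other members with an r over 0.8 with Manf was 1 to 5, with 1 without 4C11+ replicate 1 or 2, 5 without 4C replicate 1 or 3, and 1 with Spearman's rho.

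Among the other settings, 4C against melan-a had 0 genes called with genes of a mean under 1 left out, without the mean-variance trend and under both added settings, and 2 with the compared lines alone. With 4C11+ replicates 1 and 2 averaged, Manf gave 1.12 (limma adjusted p = 0.0821) and 1.57 (adjusted p = 0.0617) against 4C11- and melan-a. The count was 2 in 4C11+ against 4C11-, 2 against 4C and 1 against melan-a (3071, 3108 and 1134 of all genes). With melan-a replicate 2 and 4C11- replicate 1 left out, it was 0 in 4C11- against melan-a, 1 in 4C11+ against melan-a (Manf 1.47, adjusted p = 0.0789) and 2 in the phenotype comparison, and Manf was at -0.11 in 4C against melan-a. The sample labels give replicate numbers and state no pairing, and the fit as reported used none. The correlation of deviations between same-numbered libraries was -0.226 to 0.388, over 0.1 in 8 of 15 pairs, against 11 of 30 other pairs. Deviations within a line sum to 0 and are thus tied to each other, so these correlations cannot decide whether the numbers pair libraries. With the replicate block, Manf was at -0.06 in 4C against melan-a and at -0.68 in the phenotype comparison (limma adjusted p = 0.0449), where 4 of the 10 genes were called. Calls over all genes there went from 4232 to 4566 with the block. The cause of these changes was not tested. Of 1422 values of the other 9 genes under alternatives, 1290 kept direction and side of the threshold, 59 lost and 24 gained a call, and 49 changed sign, of which 0 had passed the threshold in the fit as reported. Among the differences given in the text, Atf4 changed sign: against the average of the other lines it was -0.11 to 0.76 with 1 library left out and -0.09 with 4C11+ replicates 1 and 2 averaged, and against 4C11- it was -0.41 to 0.46 and, with melan-a replicate 2 and 4C11- replicate 1 left out, 0.04. The compared lines alone gave no separate fit where a comparison uses all lines.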
